A study of Mus musculus with 4 samples.

Results

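Cassette exons longer than 300 nt were examined in the developing mouse cortex with and without *Qk*. Of 16034 cassette exon events for which tags were deposited, 643 had a cassette exon above 300 nt, taken as the distance between the exon's ends in the identifier of the event. These events held 620 distinct exons of 558 genes, since some exons were listed with more than 1 flanking exon or flanking splice site. Forms of an exon that differ in its own ends were counted separately. The choice used length alone and no measured value.

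Total RNA came from embryonic cortices at E14.5, of 2 control and 2 *Qk* cKO embryos, and was sequenced as poly(A)-selected libraries. The controls, labelled wild type, were *Qk* fl/fl embryos, and the *Qk* cKO embryos were *Nestin*-cre:*Qk* fl/fl littermates, so that both groups carried the floxed *Qk* alleles. *Nestin*-cre acts in neural progenitors and their progeny. Other cells of the cortex, such as those of vessels and meninges, may keep *Qk*, which was not measured by cell type. The embryos of each group were separate animals.

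*Qk* encodes the Qki proteins, RNA-binding proteins of the STAR family that recognise ACUAAC-like elements in pre-mRNA. Qki5, the nuclear form, is abundant in neural stem cells and is known to promote inclusion of some cassette exons and skipping of others. Most internal exons are short enough to be recognised across the exon as a unit, and exons far above the usual size are an exception, of which *Nin* exon 18, coding for a large part of the centrosomal protein ninein, is an example in the cortex.

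In a long exon most sequenced fragments lie inside the exon and only few cross its borders. The tags of each event were therefore read as 4 separate numbers. These were the tags of the exon, the tags of the upstream junction (preceding exon to cassette exon), the tags of the downstream junction (cassette exon to following exon) and the tags of the skipping junction (preceding to following exon). A tag is the unit that the authors' program counts, and its numbers are estimates that need not be whole.

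The junctions of 6 coding exons on which the results turn are given here, because the tags of these junctions separate inclusion from skipping. Bases are those of GENCODE M21 transcripts (GRCm38), 5′ to 3′, with 20 nt on each side of the junction, cassette exon bases in capitals and flanking exon bases in lower case.
*Nasp* exon 7 upstream: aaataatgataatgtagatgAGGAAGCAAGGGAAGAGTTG
*Nasp* exon 7 downstream: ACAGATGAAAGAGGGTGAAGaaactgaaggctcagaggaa
*Nasp* skipping: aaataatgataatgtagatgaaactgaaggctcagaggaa
*Nin* exon 18 upstream: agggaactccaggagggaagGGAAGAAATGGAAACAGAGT
*Nin* exon 18 downstream: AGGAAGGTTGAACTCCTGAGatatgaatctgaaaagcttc
*Nin* skipping: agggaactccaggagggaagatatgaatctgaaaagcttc
*Ptprf* exon 15 upstream: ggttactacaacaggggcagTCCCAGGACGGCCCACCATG
*Ptprf* exon 15 downstream: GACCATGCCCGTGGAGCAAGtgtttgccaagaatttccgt
*Ptprf* skipping: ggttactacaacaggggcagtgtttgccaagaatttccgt
*Dab2* exon 10 upstream: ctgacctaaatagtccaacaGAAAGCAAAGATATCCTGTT
*Dab2* exon 10 downstream: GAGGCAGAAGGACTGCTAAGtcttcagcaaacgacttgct
*Dab2* skipping: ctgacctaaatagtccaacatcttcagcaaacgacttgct
*Vcan* exon 7 upstream: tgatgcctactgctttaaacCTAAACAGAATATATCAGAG
*Vcan* exon 7 downstream: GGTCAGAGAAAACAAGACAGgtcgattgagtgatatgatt
*Vcan* exon 7 skipping: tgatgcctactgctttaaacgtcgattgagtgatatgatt
*Vcan* exon 8 downstream: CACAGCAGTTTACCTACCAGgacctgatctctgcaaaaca
*Vcan* exon 8 skipping: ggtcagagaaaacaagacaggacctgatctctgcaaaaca
The upstream junction of *Vcan* exon 8 is the downstream junction of exon 7.

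Gene tags per sample were between 37942046 and 42994832. The junction from *Qk* exon 2 to exon 3 held 635 and 565 tags in the controls and 63 and 68 in the *Qk* cKO embryos, and the *Qk* RPKM rose from 21.1 and 21.7 to 32.5 and 34.2, so the total of the gene did not show the deletion. Of 8 radial glia markers, *Fabp7* and *Slc1a3* were called lower in *Qk* cKO and the others were not called. The summed RPKM of the list, which abundant genes weigh on most, fell from 1633 and 1512 to 1329 and 1267. Of 6 markers of hypothalamus and diencephalon, 5 (*Lhx1*, *Nr5a1*, *Pomc*, *Six6* and *Sox14*) were lower, with a summed RPKM of 10.8 and 16.1 in the controls against 8.10 and 7.91. Markers of intermediate progenitors, cortical neurons, subpallium, microglia, vessels, meninges and blood were not called, although the meningeal sum reached 90.1 in *Qk* cKO 2 against 60.8 to 71.3 in the other embryos. In such bulk tissue fewer cells of a type and less RNA per cell cannot be told apart, and the part of these markers in the splicing results was not tested.

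Of the 643 events, 224 had no skipping tag in any embryo and 78 had no tag on either inclusion junction. Both counts include 72 events with no tag on any of the 3 junctions, so neither count measures constant inclusion or constant skipping. Coverage, the smallest row or column sum of the junction tags by group, was at least 20 in 144 events (22.4%) of 131 genes, against 28.1% of events with exons of 31 to 300 nt and 45.9% of those of 30 nt or less. Among the 144 tested events, exon tags were a median of 4.75 times the mean of both inclusion junctions. In exons of 31 to 300 nt this factor was 1.94. Inclusion was calculated as the mean of both inclusion junctions divided by the sum of this mean and the skipping junction. Inclusion in the controls was above 0.8 in 51 tested events, below 0.2 in 41 and between these values in 52, with a median of 0.589 in control and 0.600 in *Qk* cKO.

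Exon tags against skipping tags were compared by Fisher's exact test (two-sided) over all 4600 cassette events with this coverage, with calls at p below 0.01 and an FDR below 0.1. This test takes tags as independent, so the FDR of the edgeR interaction test (quasi-likelihood, isoform by genotype), which uses the variation between embryos, is given beside it. Δ*I* is inclusion in control minus inclusion in *Qk* cKO.

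Of the 144 long exon events, 11 of 9 genes were called (7.64%), against 9.28% of all tested cassette events. With an absolute Δ*I* of at least 0.1 as well, 7 were called (4.86%, against 4.85%), of which 3 had higher inclusion in control (2.63% of all tested cassette events) and 4 in *Qk* cKO (2.22%). The share of long exons called was thus near the background. Inclusion did not overlap between the groups in any of the 11 called events, as in 53 of the 144 (36.8%, against 38.5% of all tested events). By the edgeR interaction test 4 of the 144 were called (1.59% of all tested events), namely *Nasp*, *Nin*, *Ptprf* and the 5217 nt exon of *Vcan*. The median absolute Δ*I* of the 144 was 0.0279.

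**Figure D1:**
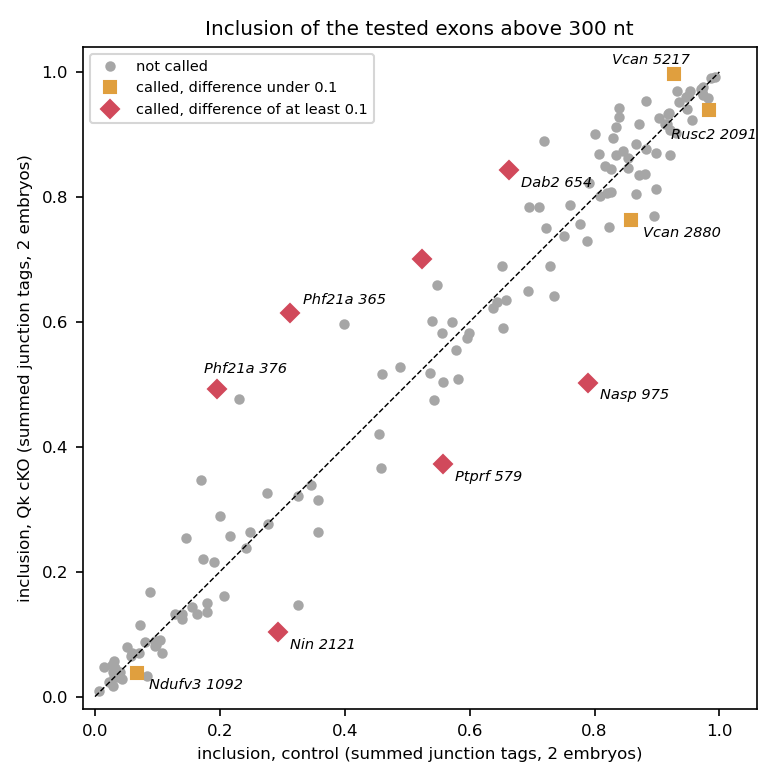
Inclusion of the 144 tested exons above 300 nt in control (x axis) and *Qk* cKO (y axis), each from the summed junction tags of 2 embryos on a scale of 0 to 1. The dashed line marks equal inclusion, squares mark called events with a difference under 0.1 and diamonds the 7 called events with a difference of at least 0.1, of which *Nasp*, *Nin* and *Ptprf* lie below the line. Names are given for 10 of the 11 called events.

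*Nasp*, which codes for a chaperone of histones, had the smallest Fisher FDR among the long exons. Its exon 7 (chr4:116610403-116611377, mm10, minus strand) is coding, 975 nt long and 325 codons in frame. The skipping junction held 179 and 167 tags in the controls and 424 and 511 in the *Qk* cKO embryos. The upstream junction held 611 and 476 tags in control and 397 and 397 in *Qk* cKO. The downstream junction held 861 and 638 against 573 and 522. Both inclusion junctions were lower and the skipping junction higher in both *Qk* cKO embryos, with no overlap between the groups. Exon tags were 4733 and 3641 in control and 3633 and 3172 in *Qk* cKO, where the groups lay next to each other. Per 100 tags of the gene, exon tags were 26.5 and 25.1 in control against 18.1 and 17.2. Inclusion was 0.804 and 0.770 in control and 0.534 and 0.474 in *Qk* cKO (Δ*I* 0.287, 95% interval 0.256 to 0.316, Fisher FDR 2.83e-82, edgeR FDR 2.28e-05).

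*Nin* exon 18 (chr12:70042132-70044252, mm10, minus strand) is coding, 2121 nt long and 707 codons in frame. Exon tags were 360 and 283 in the controls and 117 and 147 in the *Qk* cKO embryos. Skipping tags were 48.0 and 42.0 against 75.9 and 64.0. The groups were apart in both measures, with fewer exon tags and more skipping tags in *Qk* cKO. The downstream junction held 29.6 and 21 tags in control and 6.09 and 6.0 in *Qk* cKO. The upstream junction held 12 and 12 against 9.09 and 11. Both junctions were lower in *Qk* cKO, the downstream one by far more tags. Inclusion was 0.302 and 0.282 in control and 0.0909 and 0.117 in *Qk* cKO (Δ*I* 0.190, 95% interval 0.0976 to 0.282, Fisher FDR 4.84e-16, edgeR FDR 0.00114). Exon tags per 100 tags of the gene fell from 7.09 and 6.62 to 2.32 and 2.72, while the *Nin* RPKM was 12.3 and 11.3 in control and 11.8 and 13.3 in *Qk* cKO.

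Against the skipping junction, the downstream junction of *Nin* exon 18 was called (Fisher FDR 2.38e-07, edgeR FDR 0.00302) and the upstream junction was not (Fisher FDR 0.360, edgeR FDR 0.778). That difference in calls does not by itself separate the junctions. The test of the downstream against the upstream junction gave an unadjusted Fisher's exact p of 0.00501 and an FDR of 0.293, so the unequal loss did not pass over all cassette events. The few upstream tags in every embryo limited this comparison.

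*Ptprf*, a receptor protein tyrosine phosphatase of the LAR family with fibronectin type III repeats, had 2 tested long exons. Exon 15 (chr4:118225799-118226377, mm10, minus strand, 579 nt, coding) held 537 and 528 exon tags in control and 432 and 409 in *Qk* cKO. Its skipping junction held 72 and 67 tags against 124 and 91, and its upstream junction 64.0 and 67 against 37 and 40. The downstream junction held 111 and 107 tags against 94.6 and 83. The controls were higher in exon tags and on both inclusion junctions and lower in skipping tags, without overlap. Inclusion was 0.549 and 0.565 in control and 0.347 and 0.403 in *Qk* cKO (Δ*I* 0.185, 95% interval 0.109 to 0.258, Fisher FDR 9.26e-07, edgeR FDR 0.0757). Exon 12 of the same gene, 306 nt long, had an inclusion of 0.566 and 0.638 in control and 0.572 and 0.592 in *Qk* cKO (Δ*I* 0.0170, 95% interval -0.0470 to 0.0807, Fisher FDR 0.784). The groups overlapped there.

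*Phf21a*, coding for a PHD finger protein of the LSD1-CoREST complex, changed in the opposite direction and contributed 2 of the called events. They describe 1 stretch in the 5′ part of the gene (chr2:92187044-92187408, mm10, plus strand, 365 nt, annotated as UTR) with a second 3′ splice site 11 nt further upstream, which gives 376 nt. Exon tags were the same in both, 33 and 36 in control and 56 and 67 in *Qk* cKO, and so were skipping tags, 16 and 17 against 7 and 9. Both measures were apart between the groups. The 365 nt exon was joined to the preceding exon by 8 and 6 tags in control and 7 and 13 in *Qk* cKO, and the 376 nt exon by 0 tags in every embryo, so no upstream junction tag supported the 376 nt form. The shared downstream junction held 7 and 9 tags in control and 18 and 13 in *Qk* cKO. For the 365 nt form inclusion was 0.319 and 0.306 in control and 0.641 and 0.591 in *Qk* cKO (Δ*I* -0.302, 95% interval -0.476 to -0.0950, Fisher FDR 0.00306, edgeR FDR 0.160). With coverage of only 49 tags the interval was wide.

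*Dab2* codes for an adaptor of clathrin-mediated endocytosis. Its exon 10 (chr15:6429296-6429949, mm10, plus strand, 654 nt, coding) held 193 and 186 exon tags in control and 219 and 304 in *Qk* cKO. Downstream tags were 19 and 21 against 35 and 55.0, and skipping tags 14 and 14 against 6 and 11. Upstream tags were 38 and 32 against 48 and 44.0. The groups were apart in all 4 measures, on small numbers of skipping tags. The *Dab2* RPKM was 5.58 and 5.08 in control and 5.31 and 7.11 in *Qk* cKO, highest in the embryo with the most exon tags. Inclusion was 0.671 and 0.654 in control and 0.874 and 0.818 in *Qk* cKO (Δ*I* -0.180, 95% interval -0.301 to -0.0575, Fisher FDR 0.0947, edgeR FDR 0.410). The Fisher call was lost whichever of the 4 embryos was left out, with FDRs between 0.213 and 0.309.

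**Figure D2:**
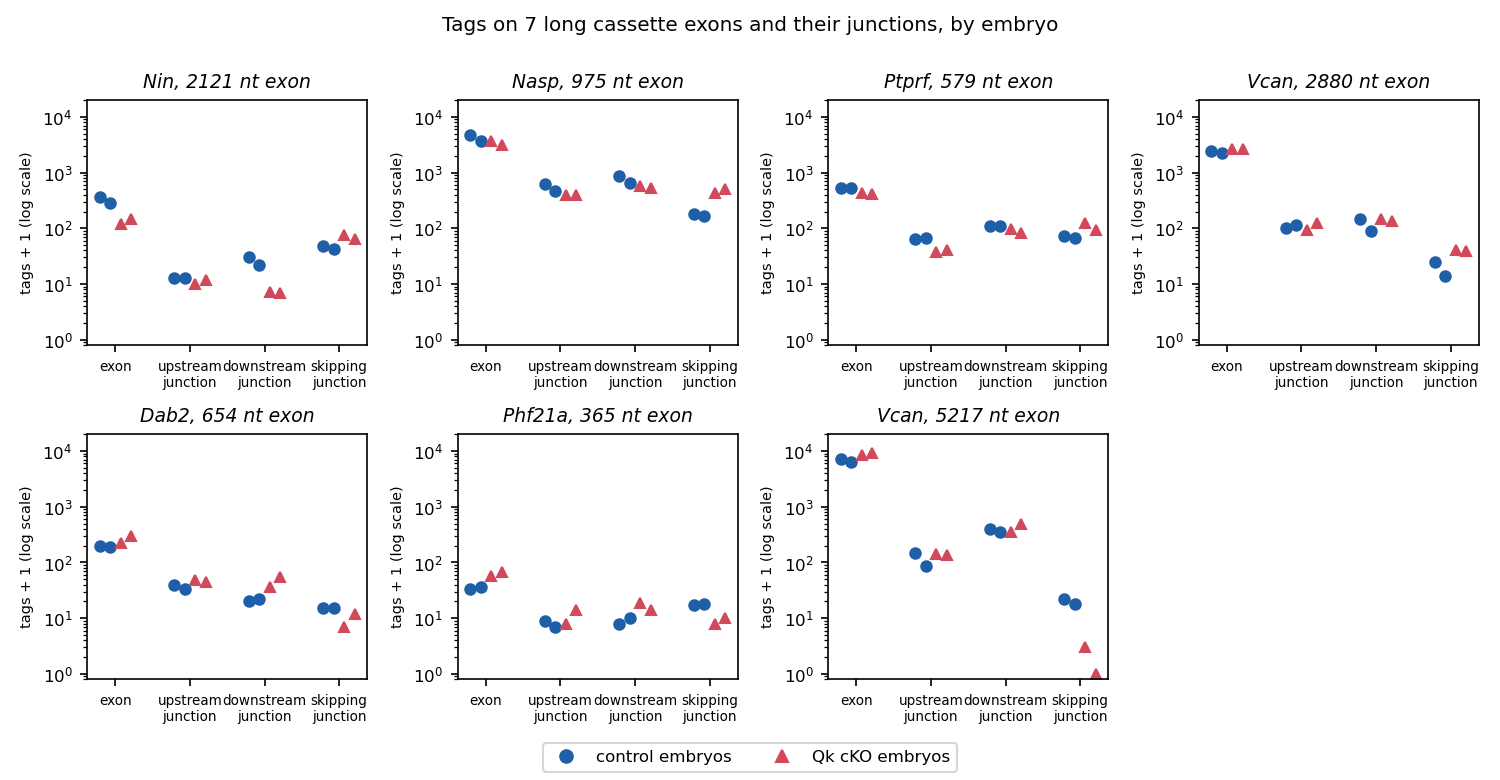
Tags of the exon, the upstream junction, the downstream junction and the skipping junction (x axis) for 7 long cassette exons, as tags + 1 on a log scale (y axis). Each circle is a control embryo and each triangle a *Qk* cKO embryo. *Nin* shows its widest gap between junctions at the downstream junction (29.6 and 21 tags in control, 6.09 and 6.0 in *Qk* cKO), and the 5217 nt exon of *Vcan* at the skipping junction.

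*Vcan* codes for versican, a chondroitin sulphate proteoglycan of the extracellular matrix. Its adjacent long exons 7 and 8 code for the attachment regions of the glycosaminoglycan chains, and the known forms of the protein carry both (V0), the region of exon 8 alone (V1), the region of exon 7 alone (V2) or neither (V3). Exon 8 (chr13:89688285-89693501, mm10, minus strand), 5217 nt and 1739 codons, was the longest exon tested and held 49.8 and 51.0 of every 100 tags of the gene in control and 53.0 and 54.7 in *Qk* cKO. Its exon tags were 7241 and 6438 in control and 8594 and 9067 in *Qk* cKO, higher in both *Qk* cKO embryos. Exon 7 (chr13:89702918-89705797) has 2880 nt and 960 codons, with 2414 and 2237 exon tags against 2639 and 2657.

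The junction from exon 7 to exon 9, which marks V2, held 21 and 17.1 tags in the controls and 2 and 0 in the *Qk* cKO embryos. The junction from exon 6 to exon 8, which marks V1, held 24.2 and 13 tags in control and 39.5 and 38.0 in *Qk* cKO. The groups did not overlap in either, and the changes ran in opposite directions. The junction from exon 7 to exon 8 of V0 held 149 and 86.9 tags against 143 and 137, and that from exon 6 to exon 9 of V3 held 0 and 0 against 2 and 0. Neither separated the groups, nor did the junctions from exon 6 to exon 7 (102 and 112 against 91.5 and 126) and from exon 8 to exon 9 (399 and 346 against 358 and 487).

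Inclusion of exon 8 was 0.929 and 0.927 in control and 0.992 and 1 in *Qk* cKO (Δ*I* -0.0685, 95% interval -0.0939 to -0.0473, Fisher FDR 6.86e-10, edgeR FDR 6.19e-04). This difference was under 0.1 but had the largest log2 odds ratio among the called long exons, 4.32 for exon tags. Inclusion of exon 7 was 0.838 and 0.884 in control and 0.748 and 0.776 in *Qk* cKO (Δ*I* 0.0955, 95% interval 0.0315 to 0.157, Fisher FDR 0.0338, edgeR FDR 0.332). The call on exon 7 was lost without control 2 (FDR 0.411) or without *Qk* cKO 1 (FDR 0.169). The *Vcan* RPKM was 29.6 and 28.1 in control and 31.9 and 34.1 in *Qk* cKO (edgeR FDR 0.360).

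**Figure D3:**
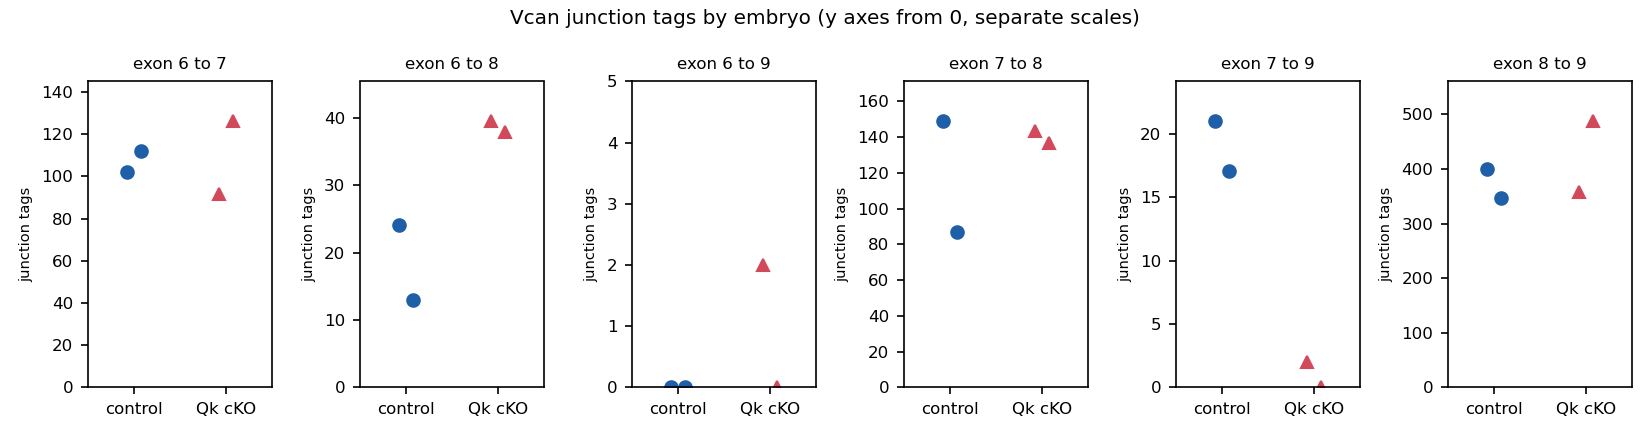
Tags on the 6 junctions between *Vcan* exons 6, 7, 8 and 9 (y axis, tags, each panel with its own scale from 0) in control and *Qk* cKO embryos (x axis), 1 point per embryo. The junction from exon 7 to exon 9 fell to 2 and 0 tags in *Qk* cKO, and that from exon 6 to exon 8 was 39.5 and 38.0 against 24.2 and 13.

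The other 2 called events had small differences. *Ndufv3* codes for an accessory subunit of respiratory complex I, and its exon 3 (chr17:31527310-31528401, mm10, plus strand, 1092 nt, coding) was mostly skipped. Exon tags were 382 and 372 in control and 283 and 271 in *Qk* cKO, while skipping tags overlapped at 576 and 613 against 627 and 584. Downstream tags were 63 and 58.1 in control and 19 and 34.1 in *Qk* cKO, and upstream tags overlapped at 22.0 and 28.1 against 27 and 17.1. The controls were thus higher in exon and downstream tags alone. Inclusion was 0.0687 and 0.0657 in control and 0.0354 and 0.0420 in *Qk* cKO (Δ*I* 0.0286, Fisher FDR 1.39e-04, edgeR FDR 0.405). The Fisher FDR was 2.13e-05 for the downstream junction and 0.888 for the upstream one, and 0.428 for one junction against the other.

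*Rusc2*, coding for a RUN and SH3 domain protein of membrane traffic, was the opposite case, an exon nearly always included. Its exon 2 (chr4:43414628-43416718, mm10, plus strand, 2091 nt, coding and UTR) held 1742 and 1749 exon tags in control and 1630 and 1702 in *Qk* cKO. Skipping tags were 5 and 0 against 10 and 8. The groups were apart in both, with few skipping tags in each embryo. Downstream tags were 134 and 147 in control and 125 and 122 in *Qk* cKO, and upstream tags overlapped at 145 and 155 against 128 and 177. Inclusion was 0.965 and 1 in control and 0.927 and 0.949 in *Qk* cKO (Δ*I* 0.0443, Fisher FDR 0.0706, edgeR FDR 0.417), and the call was kept in 1 of the 4 analyses with an embryo left out. Δ*I* was 0.0266 without control 2 and 0.0612 without control 1.

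The 3 inclusion measures were then tested against the skipping junction one by one. All 3 share the skipping junction, and the 11 called events were chosen by exon tags against it, so the common sign of the 3 odds ratios in these events is a description. The upstream junction of the 376 nt *Phf21a* event had no tag, and its odds ratio rests on the skipping tags. The upstream junction was called in 6 of the 144 events (6.78% of all tested cassette events) and the downstream junction in 11 (7.43%). Without control 2 the upstream calls were 11, and without *Qk* cKO 1 the downstream calls were 7. Both were called in 4 events, among them *Nasp*, *Ptprf* and *Vcan* exon 8. The downstream junction alone was called in 7, namely *Nin*, *Ndufv3*, *Dab2*, *Rusc2*, both *Phf21a* events and a 528 nt exon of *Epb4.1l3*, and the upstream junction alone in *Vcan* exon 7 and a 326 nt exon of *Angel2*. Both inclusion junctions pooled, without exon tags, gave 12 calls among the 144 events, beside 10.6% called among all tested cassette events. The *Epb4.1l3* exon, of a protein 4.1 of the membrane skeleton, was nearly always skipped, with an inclusion of 0.0114 and 0.0170 in control and 0.0493 and 0.0442 in *Qk* cKO, and its exon tags did not pass (Fisher FDR 0.107).

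**Figure D4:**
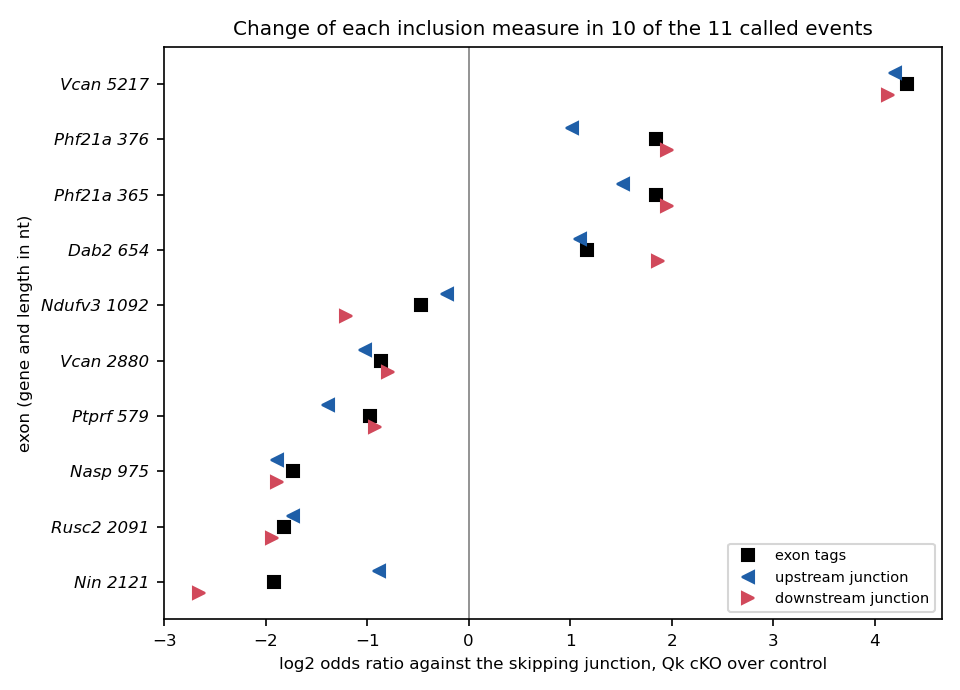
Log2 odds ratio of *Qk* cKO over control (x axis) for exon tags (squares), the upstream junction and the downstream junction (triangles pointing left and right), each against the skipping junction, in 10 of the 11 called events (y axis, gene and exon length in nt). Values below 0 mean less inclusion in *Qk* cKO. The 3 measures share the skipping junction, and *Nin* shows its downstream junction farther from 0 than its upstream junction.

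The downstream against the upstream junction was called in 1 of the 144 long exons (0.783% of all tested cassette events), a 349 nt exon of *Thra*, the gene of thyroid hormone receptor alpha. Its upstream junction held 279 and 297 tags in control and 201 and 218 in *Qk* cKO, with 1134 and 1082 against 1142 and 1104 on the downstream junction. The upstream junction was lower in both *Qk* cKO embryos and the downstream junction overlapped (Fisher FDR 0.00198, edgeR FDR 0.894). The skipping junction held 4 and 7 tags in control and 3 and 7 in *Qk* cKO, and inclusion of this exon, at 0.990 to 0.996 in the 4 embryos, was not called.

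Of the 133 tested long exon events that were not called, 67 had a 95% interval of Δ*I* within 0.1 of 0 and 9 had an absolute Δ*I* of at least 0.1. The intervals outside the 67 reached past 0.1. In 14 of the 133 the interval excluded 0, and 20 had an unadjusted Fisher's exact p under 0.05. Over the 133, Δ*I* ran from -0.245 to 0.178. The best covered event was a 530 nt UTR exon of *Hnrnpc*, an hnRNP protein, with an inclusion of 0.566 and 0.545 in control and 0.568 and 0.597 in *Qk* cKO (Δ*I* -0.0271, 95% interval -0.0565 to 0.00243). *Ncam1* exon 19 (801 nt, coding), which lengthens the cytoplasmic part of this adhesion molecule, had an inclusion of 0.289 and 0.366 in control and 0.319 and 0.324 in *Qk* cKO (Δ*I* 0.00403, 95% interval -0.0312 to 0.0393). *Qk* cKO embryos lay between the controls. Next in coverage were *Srsf3* (456 nt, Δ*I* -0.00949), *Agrn* (793 nt, 0.000537) and *Snrnp70* (1360 nt, -0.00788), all 3 on exons annotated in non-coding transcripts only.

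After the *Vcan* exons, the longest tested exons were those of *Gnas* (2327 nt), *Zfp106* (2169 nt) and *Rtn3* (2124 nt), the last close to *Nin* exon 18 in length. *Rtn3*, a reticulon of the endoplasmic reticulum, included this exon at 0.0226 and 0.0423 in control and 0.0329 and 0.0386 in *Qk* cKO (Δ*I* -0.00312, 95% interval -0.0369 to 0.0335). *Gnas*, a locus of G protein alpha subunits, had 0.983 and 0.992 against 0.993 and 0.988. In *Zfp106*, a zinc finger protein, inclusion was 0.854 and 0.881 in control and 0.822 and 0.786 in *Qk* cKO, without overlap and not called (Fisher FDR 0.756).

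At the length limit, the shortest tested exons were those of *Tra2a* (301 nt, inclusion 0.0347 in control and 0.0369 in *Qk* cKO), *Rapgef6* (303 nt, 0.823 and 0.751) and *Depdc5* (303 nt, 0.751 and 0.737). Just outside it were *Ormdl2* (300 nt, 0.840 and 0.770), *Trim46* (298 nt, 0.805 and 0.796) and *Fam126a* (298 nt, 0.142 and 0.161).

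By annotation, 312 of the 643 events lay on coding exons, 149 on exons that are partly coding and partly UTR, 38 on UTR exons and 108 on exons of non-coding transcripts only. Another 29 were not annotated as an exon (10 tested, 0 called) and 7 could not be placed (2 tested, 0 called). Calls fell on 8 of 72 tested coding events (10.5% of tested coding events of any length), 1 of 23 of the mixed class (*Rusc2*, against 8.7%), 2 of 14 UTR events (*Phf21a*, against 6.87%, both on 1 stretch) and 0 of 23 in non-coding transcripts (against 7.5%). These small counts set no class apart. Of the 72 tested coding exons 53 (73.6%) had a length that is a multiple of 3, against 61.9% of those of 31 to 300 nt and 92.1% of those of 30 nt or less. The 8 called coding exons, among them those of *Nasp*, *Nin*, *Ptprf*, *Dab2*, *Ndufv3* and *Vcan*, were multiples of 3 without exception. Among called coding events, so were 186 of 238 at 31 to 300 nt and 39 of 41 at 30 nt or less. The 8 are too few to set the long exons apart.

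The host genes were grouped by function. The lists held 1 to 8 tested events each, so the 0 or 1 call per list is read against the 9.28% called among all tested cassette events and sets no list apart. Of 36 centrosome and microtubule genes, 7 had a long cassette exon, 2 could be tested (*Nin* and *Dst*) and *Nin* was called. The 327 nt exon of *Dst*, a cytoskeletal linker, had an inclusion of 0.132 and 0.124 in control and 0.129 and 0.134 in *Qk* cKO. Of 26 genes of the membrane skeleton and adhesion, 10 had a long exon, 7 were tested and 1 was called. Of 19 genes of membrane trafficking and signalling, 5 had a long exon, 3 were tested and *Ptprf* was called. No call was made in the 5 tested genes of 34 RNA-binding and splicing factors (*Snrnp70*, *Srsf3*, *Srsf7*, *Tra2a* and *Tra2b*), nor in *Mga*, the tested gene of 26 for DNA repair and chromatin. The median absolute Δ*I* was 0.00314 over the events of the splicing factors and 0.00984 over those of the membrane skeleton, beside 0.0279 over all 144.

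Transcript levels of the host genes were compared by edgeR's quasi-likelihood test on tags per gene. Of the 558 host genes 534 were tested and 2 called (0.375%, against 0.584% of all 18834 tested genes). *Tacc1*, coding for a centrosomal coiled-coil protein, fell from an RPKM of 7.63 and 8.0 in control to 5.50 and 5.65 (log2 fold change -0.47 ± 0.10 SE, edgeR FDR 0.0430). *Aspm*, coding for a spindle pole protein of dividing progenitors, rose from 8.46 and 8.12 to 9.68 and 10.02 (log2 fold change 0.26 ± 0.06 SE, edgeR FDR 0.0662). These 2 calls were lost, with 0 host genes called, without control 1, without control 2 or after edgeR's filterByExpr, and 10 were called without *Qk* cKO 1. None of the 9 genes with a called long exon was called for its level. The closest of them to the threshold was *Vcan* (log2 fold change 0.20 ± 0.07 SE, FDR 0.360).

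Some long exons had too few skipping or inclusion junction tags to be tested. The 3795 nt exon of *Aspm* had 0 skipping tags in every embryo. Its upstream tags were 23 and 31 in control and 50 and 47 in *Qk* cKO. Its downstream tags, at 43 and 45 against 44 and 34, were not higher in *Qk* cKO. The 8104 nt exon of *Mtap1a*, a microtubule-associated protein of neurons, had 3 and 0 skipping tags in control and 1 and 1 in *Qk* cKO beside 2722 to 3102 exon tags. In *Ninl*, the paralog of *Nin*, the 1041 nt exon had 1 and 0 skipping tags in control and 1 and 0 in *Qk* cKO beside 254 and 215 against 322 and 260 exon tags, a pattern of nearly full inclusion in both groups. A second long exon of *Nin*, of 411 nt in the UTR, had 2 and 0 skipping tags against 2 and 5 and was too rare to compare. The 5916 nt exon of *Naca* lay at the other end, with 2507 to 3157 skipping tags and at most 2 tags on either inclusion junction per embryo. The longest member, a 9265 nt exon of the muscle gene *Xirp2*, had no tag in any embryo.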

How the data were processed

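Libraries of 2 control and 2 *Qk* cKO cortices were used, with groups from the sample labels. The authors aligned reads to mm10 with OLego and quantified genes and splicing events with Quantas. The authors deposited estimated counts of tags per gene and per exon and junction of each event, and the RPKM of each gene. In the deposited cassette events the isoform tags equal the exon tags and the skipping junction tags. Positions, exon numbers and sequences were taken from GENCODE M21 (GRCm38, the build of mm10), counted from 1, with the transcript that has the flanking exons of the event.

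Tags were summed by group and rounded, and tested by Fisher's exact test (scipy 1.17.1) with Benjamini-Hochberg adjustment over the 4600 cassette events with coverage of at least 20. Alternatives were edgeR 4.0.16 (R 4.3.3), an exact Cochran-Mantel-Haenszel test blocked by replicate number, junction tags only, other coverage and length limits, and each embryo left out, keeping the set of tested events. Gene tags were compared with edgeR after TMM normalization, over genes with a tag in at least 1 embryo, and called at p below 0.01 and FDR below 0.1. DESeq2 1.42.0 was an alternative. The scripts' tests were tested on simulated data. Intervals are Wilson intervals at 95%, combined for a difference by Newcombe's method, and cover counting error only.

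Exons named with full values were *Nin* exon 18 and every long exon called with an absolute Δ*I* of at least 0.1. One item chosen by these rules is left out of the text. Exons called with a smaller difference, the 5 longest tested, the 5 best covered that were not called and those at the length limit were named more briefly. *Thra*, *Epb4.1l3*, *Angel2* and the untested exons were added after their values were seen. The long exons and gene lists were chosen with earlier results of these data known. List symbols were matched by gene ID, and 2 of the 26 DNA repair and chromatin symbols and 1 blood marker (*Hbb-bt*) found no gene. The labels and the results of the study give 2 replicates per group, and its methods give 3 for the RNA.

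The same replicate numbers in both groups come from the labels and are not stated to mark a litter.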

Additional observations from a re-analysis of the deposited data

How the results depend on the processing

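In a Cochran-Mantel-Haenszel test with a replicate block, 7 long exons were called with an absolute Δ*I* of at least 0.1, as without it. Deviations of same-numbered embryos had a correlation of -0.139 over the 144 tested long exons, -0.0190 over all tested cassette events, 0.384 over expressed genes and -0.0725 over autosomal ones, and a crossed pairing, chosen after seeing the data, also gave 7. Blocking gave 11 exon, 7 upstream and 12 downstream junction calls, and moved the host genes called from 2 to 6. The 7 became 4 at a coverage of at least 50, without *Dab2* and both *Phf21a* events, 3 with the edgeR interaction test and 11 with no minimum difference. They became 5 above 500 nt and 2 above 1000 nt, since fewer exons then remain. Counting events with identical exon tags as 1 event gave 6. Requiring at least 1 tag on each inclusion junction in each group also gave 6, as did adjustment over all 6 event types. With an embryo left out, 7 to 9 were called. The edgeR interaction test reduced exon tag calls from 11 to 4 (15 at an unadjusted p under 0.05), upstream calls from 6 to 3, downstream calls from 11 to 5 and downstream against upstream calls from 1 to 0 (12 at an unadjusted p under 0.05), which was 0 over all 4600 events. With an embryo left out, exon tag calls were 12 to 13, upstream calls 6 to 11 (11 without control 2) and downstream calls 7 to 13 (7 without *Qk* cKO 1). Host genes called were 0 with filterByExpr, 3 with DESeq2, and 0 without control 1 or control 2, 2 without *Qk* cKO 2 and 10 without *Qk* cKO 1. Δ*I* of *Nin* exon 18 was 0.209 from exon tags per length, and 0.176 to 0.202 with an embryo left out. By the same measure Δ*I* was 0.0187 for *Ndufv3*, -0.136 for *Dab2* and -0.0870 for *Vcan* exon 8. No Δ*I* of the 11 called events changed direction under any alternative run, and the exons not called were not recomputed. Where values moved, the cause was not tested unless fewer exons or embryos were used by construction. For want of coverage, 499 of the 643 events were not tested.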
